A study of Mus musculus with 18 samples.

Results

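The WNT ligands described here are Wnt2, Wnt2b, Wnt3, Wnt3a, Wnt4, Wnt5a, Wnt5b, Wnt6, Wnt8a and Wnt11. They were taken by symbol from the raw count table and make up 10 of its 23337 genes. They were followed through the cardiac differentiation of mouse embryonic stem cells in which the Hedgehog transcription factor GLI1 was switched on for a day and then withdrawn. The line, GLI1-FTA, has the strain label A2Lox.cre. Cells at D5 and D6 are labelled cardiac progenitors, and those at D8 and D12 immature cardiomyocytes or cardiomyocytes. GLI1 overexpression (OE) libraries came from cells given doxycycline at 500 ng/ml during the 24 hours between D5 and D6, then washed. They number 3 at D6, 2 at D8 and 2 at D12. Control libraries came from untreated cells of the same line and number 4 at D5, 3 at D6, 2 at D8 and 2 at D12. No control received doxycycline, so effects of the drug and of GLI1 cannot be told apart, and all groups are derivatives of 1 engineered line. Whether replicates were grown as separate cultures is not stated, so a p-value here reflects the spread of these samples alone, which may be technical.

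WNT proteins are secreted, lipid-modified signals. Porcupine attaches the lipid, Wls carries the ligand to the cell surface, and Frizzled receptors with Lrp5 or Lrp6 pass the signal on by stabilising beta-catenin, while Ror receptors and the planar cell polarity proteins carry signals that do not need beta-catenin. In the embryo, beta-catenin signalling first helps to form mesoderm and later holds back the differentiation of heart muscle, a stage at which Wnt5a and Wnt11 are known to act through routes that do not need beta-catenin.

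The promoters of ligands whose levels the results turn on, and that of Wnt5b, which holds a motif match, are shown because GLI1 and the beta-catenin partners TCF and LEF are DNA-binding factors. Of the 10 ligands, 8 matched the RefSeq promoter table (assembly GRCm38.p6), with 11 promoters in all. Wnt5a and Wnt8a did not match. Each line gives the 250 bases before a start site, 5′ to 3′ on the strand of the gene. Capitals mark a TCF/LEF core (CTTTGAT or its reverse complement ATCAAAG). The GLI core searched was CCACCCA, on both strands.
Wnt11 (chr7:98834862-98835111, plus strand): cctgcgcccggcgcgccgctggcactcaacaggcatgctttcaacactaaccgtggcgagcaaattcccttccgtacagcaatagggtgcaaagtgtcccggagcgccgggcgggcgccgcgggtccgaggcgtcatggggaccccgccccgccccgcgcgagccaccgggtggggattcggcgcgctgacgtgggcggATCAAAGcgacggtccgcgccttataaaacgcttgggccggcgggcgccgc
Wnt6 (chr1:74771642-74771891, plus strand): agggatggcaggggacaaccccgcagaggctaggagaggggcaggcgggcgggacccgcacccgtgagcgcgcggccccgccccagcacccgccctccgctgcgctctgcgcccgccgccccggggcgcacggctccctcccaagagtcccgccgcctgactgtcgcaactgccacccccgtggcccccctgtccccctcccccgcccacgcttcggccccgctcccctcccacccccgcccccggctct
Wnt4 (chr4:137277385-137277634, plus strand): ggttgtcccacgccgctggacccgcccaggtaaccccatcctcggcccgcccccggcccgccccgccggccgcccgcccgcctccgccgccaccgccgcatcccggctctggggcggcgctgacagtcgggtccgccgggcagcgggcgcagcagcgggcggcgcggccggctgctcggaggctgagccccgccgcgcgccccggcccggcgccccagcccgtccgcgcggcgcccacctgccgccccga
Wnt2 (chr6:18030446-18030695, minus strand): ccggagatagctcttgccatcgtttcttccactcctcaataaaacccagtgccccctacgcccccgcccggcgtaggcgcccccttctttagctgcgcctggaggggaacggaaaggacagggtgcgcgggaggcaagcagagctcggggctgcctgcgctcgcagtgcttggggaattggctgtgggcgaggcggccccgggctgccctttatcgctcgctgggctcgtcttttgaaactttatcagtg
Wnt3 (chr11:103773925-103774174, plus strand): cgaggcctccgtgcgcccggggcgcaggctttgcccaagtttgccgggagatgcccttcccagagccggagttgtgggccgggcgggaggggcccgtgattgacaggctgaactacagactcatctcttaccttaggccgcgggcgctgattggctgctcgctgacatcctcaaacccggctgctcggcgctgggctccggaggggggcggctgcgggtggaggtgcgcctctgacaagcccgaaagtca
Wnt2b (chr3:104961710-104961959, minus strand): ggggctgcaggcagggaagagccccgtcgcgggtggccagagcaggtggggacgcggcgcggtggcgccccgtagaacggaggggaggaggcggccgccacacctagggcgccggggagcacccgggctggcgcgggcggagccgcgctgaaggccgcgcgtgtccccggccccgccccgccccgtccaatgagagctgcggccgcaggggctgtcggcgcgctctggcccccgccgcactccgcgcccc
Wnt5b (chr6:119449387-119449636, minus strand): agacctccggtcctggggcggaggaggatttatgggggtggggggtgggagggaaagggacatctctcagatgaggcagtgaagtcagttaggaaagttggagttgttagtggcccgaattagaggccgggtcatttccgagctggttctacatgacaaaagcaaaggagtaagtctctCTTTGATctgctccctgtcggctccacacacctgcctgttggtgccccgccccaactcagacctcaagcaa
The GLI core stood in 0 of the 11 ligand promoters and in 8.11% of all 32851 promoters of the same length. The TCF/LEF core stood in 2 of the 11, against 3.21% of all promoters: 51 to 45 bases before 1 of the Wnt11 start sites, and 71 to 65 bases before 1 of the Wnt5b start sites. These matches are descriptions of letters in these windows. In the gene order of the same assembly, Wnt3 overlaps Wnt9b, Wnt3a lies next to Wnt9a, and Wnt6 lies next to Wnt10a. Wnt2b overlaps St7l and Wnt5b overlaps Fbxl14, so reads in the shared stretches could have been counted to either gene. The reads are labelled stranded, but the sources used here give no counting rule and no use of strand in the counting.

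Total counts were 18470785 to 26184339 per library, so a count of 0 allows up to 0.120 to 0.170 CPM (counts scaled to library size), which covers counting error only. The induced gene followed its label. Gli1 stood at 785 to 1051 CPM in D6 GLI1 OE libraries and at 6.84 to 21.4 CPM in D6 controls, and was back at 0.795 to 1.45 CPM in D8 and D12 GLI1 OE libraries, against 0.752 to 1.18 CPM in D8 and D12 controls. Cardiomyocyte markers (6 genes, summed) were present in all libraries and covered 846 to 2808 CPM in D6 GLI1 OE libraries and 2966 to 6687 CPM in D6 controls. At D8, GLI1 OE libraries 14 and 18 held 9531 and 940 CPM, against 10280 and 5142 CPM in controls 13 and 17. Endoderm markers summed to at most 27.2 CPM in any library. D5 control libraries 1 and 2 were the most alike, with a chi-square per gene of 6.70, against 49.1 to 91.6 for the other pairs of D5 libraries. Because these are bulk samples, fewer cells of a type and less RNA per cell cannot be told apart.

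At D5, before the pulse, the ligands spanned a wide range of levels. Per unit of transcript length, in the length-scaled TPM values deposited by the authors, the order was Wnt4, Wnt5a, Wnt2, Wnt2b, Wnt11, Wnt3, Wnt6, Wnt5b, Wnt8a and Wnt3a. Wnt4, a ligand best known from kidney and gonad development, averaged 35.0 ± 20.5 TPM (SD, n = 4), and Wnt5a, which acts mainly without beta-catenin, averaged 32.9 ± 4.65 TPM (n = 4). Wnt2, a ligand of early cardiac mesoderm, stood at 8.77, 9.23, 35.8 and 34.1 TPM, a mean of 22.0 TPM. Wnt2b, Wnt11, Wnt3, Wnt6 and Wnt5b averaged between 2.75 and 8.87 TPM. Wnt8a, which is made in the early primitive streak, averaged 0.801 ± 0.637 TPM, and Wnt3a, which is needed for paraxial mesoderm, averaged 0.179 ± 0.144 TPM. Every ligand overlapped in range with its neighbour in that order, so the ranges alone do not separate neighbours. Within each of the 4 samples, however, Wnt5b was above Wnt8a. Of the 9 other mouse WNT ligands in the table, Wnt9a was the most abundant, at 1.68 ± 0.927 TPM.

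**Figure D1:**
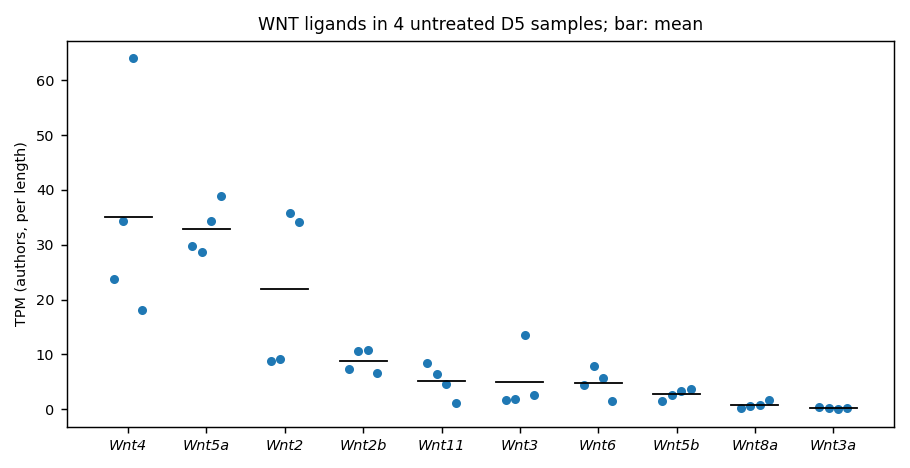
Levels of 10 WNT ligands (x axis, ordered by mean) in 4 untreated D5 samples, in TPM deposited by the authors (y axis, linear); points are samples and bars are means. Wnt4, Wnt5a and Wnt2 have means above 20 TPM, Wnt2 and Wnt3 split widely between samples, and neighbours in the order overlap.

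In D8 controls relative to D6 controls 5 of the 9 ligands that passed the expression filter fell and 0 rose (edgeR quasi-likelihood test, Benjamini-Hochberg adjusted over all 14892 genes tested). Over all genes 34.8% were called, 17.5% lower. The median log2 fold change of the 9 was -2.26, against 0.00 over all genes. Wnt3a did not pass the filter: it had 25 counts over all 18 libraries, most of them at D5.

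Wnt4 stood at 1.06 and 7.50 CPM in D8 controls, against 55.8, 66.5 and 70.9 CPM in D6 controls. The groups were far apart, although the D8 libraries differed from each other several-fold. Wnt4 fell by 3.91 ± 0.77 on the log2 scale (SE, adjusted p = 0.00186).

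Wnt6, a ligand of surface ectoderm that restrains heart muscle formation in frog embryos, had 6 and 2 counts (0.265 and 0.0872 CPM) in D8 controls, against 5.02, 3.08 and 10.8 CPM in D6 controls. It fell by 5.12 ± 0.90 on the log2 scale (adjusted p = 0.000834). Wnt4 and Wnt6 both stayed called whichever D6 or D8 control library was left out, with adjusted p up to 0.0192 for Wnt4 and 0.0153 for Wnt6, but the size of the fall moved. The log2 fold change of Wnt4 was -3.11 without D8 control library 13 and -5.93 without library 17. That of Wnt6 was -6.10 without D8 control library 13 and -4.49 without D6 control library 3, and rests on 6 and 2 counts at D8.

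Wnt2b, a close relative of Wnt2 that acts with it in lung specification in mice, stood at 1.11 and 1.13 CPM in D8 controls, against 5.26, 4.44 and 6.46 CPM in D6 controls. It fell by 2.26 ± 0.53 on the log2 scale (adjusted p = 0.00536), and missed the threshold by a little without D8 control library 13 (adjusted p = 0.0509). Wnt3, which starts primitive streak formation in the mouse, stood at 0.708 and 2.57 CPM in D8 controls, against 3.63, 9.90 and 15.2 CPM in D6 controls. Its fall of 2.54 ± 0.94 on the log2 scale sat at the threshold (adjusted p = 0.0496). It was lost without D6 control library 15 or 3 and without D8 control library 13 or 17 (adjusted p = 0.0625 to 0.278), with log2 fold changes of -1.90 without library 13 and -3.76 without library 17. Wnt8a had 0 counts in both D8 controls, against 8, 1 and 4 counts in D6 controls (adjusted p = 0.0462). Leaving out D6 control library 11 or 3, or either D8 control, ended that call (adjusted p = 0.0663 to 0.169), and no fold is given for counts this low. Wnt8a passed the filter mainly through its 3, 9, 14 and 28 counts at D5. The 6 markers of primitive streak and nascent mesoderm, summed, moved with these ligands, at 3.58 and 5.10 CPM in D8 controls and 40.0 to 85.6 CPM in D6 controls. Eomes made up most of that sum, with means of 1.99 CPM in D8 controls and 44.8 CPM in D6 controls, while Tbx6 was higher in D8 controls (1.36 CPM) than in D6 controls (0.431 CPM). Their part in the result was not tested.

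Wnt5a, Wnt5b, Wnt2 and Wnt11 were not called between D6 and D8. Wnt5a stood at 49.6 and 63.7 CPM in D8 controls and 60.3 to 87.5 CPM in D6 controls (log2 fold change -0.33 ± 0.27, adjusted p = 0.364), and its 7 group means spanned 0.69 log2 units over the whole course. Wnt5b, the close relative of Wnt5a, spanned 1.48 log2 units. Wnt11 ran the other way: 66.6 and 62.3 CPM in D8 controls, against 12.9, 24.4 and 24.0 CPM in D6 controls, with no overlap. Its log2 fold change of 1.66 ± 0.64 did not pass the test (adjusted p = 0.0592). DESeq2 called it (adjusted p = 0.0279, with 38.8% of genes called), as did edgeR fitted to those 5 libraries alone (adjusted p = 0.00784, with 40% of genes called).

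**Figure D2:**
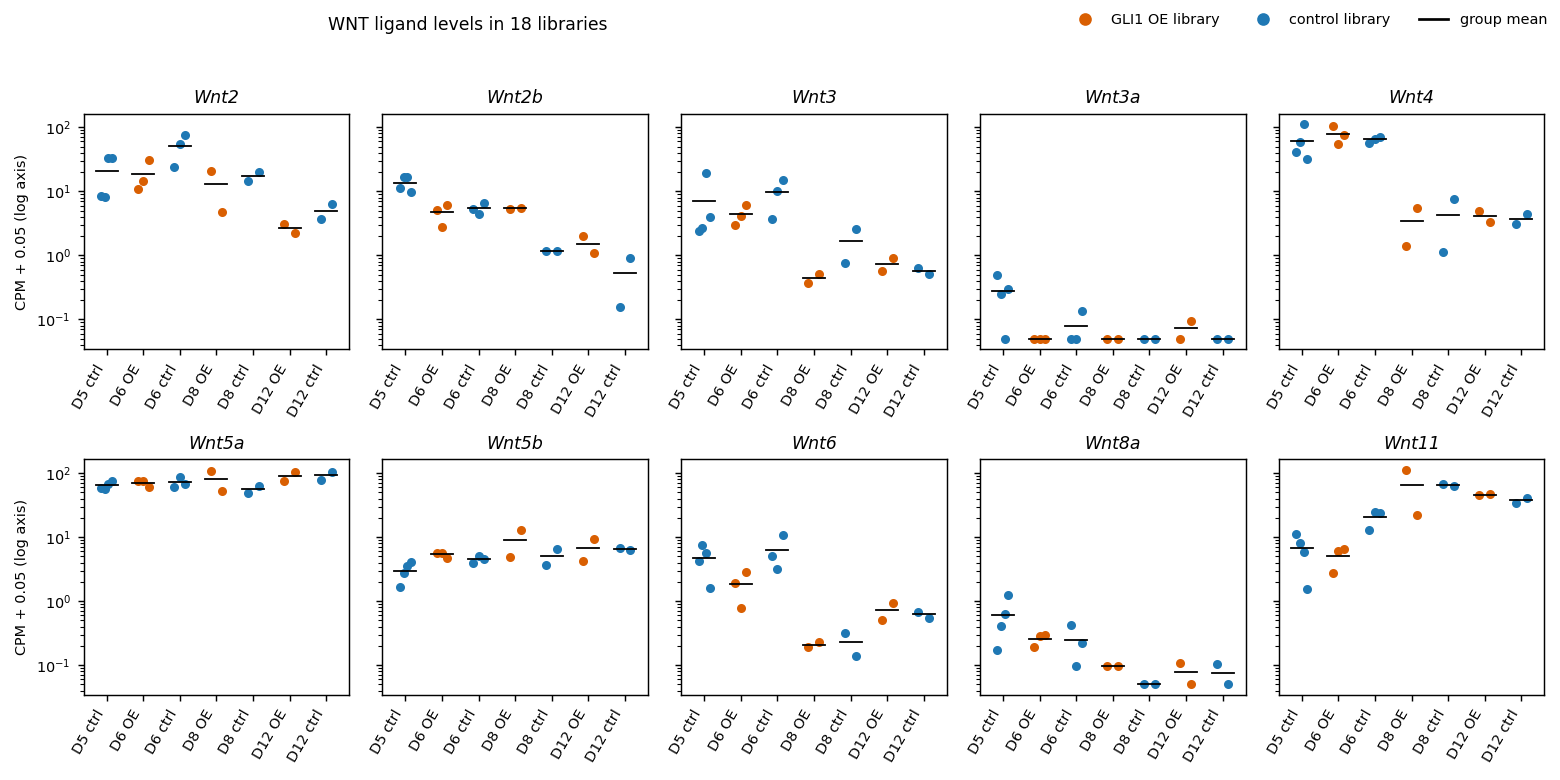
Level of each WNT ligand (y axis, CPM + 0.05, log scale) in 18 libraries, by day and condition (x axis; OE is GLI1 overexpression, ctrl is control); points are libraries and bars are group means. Wnt4 and Wnt6 drop between D6 and D8 in both conditions, Wnt5a stays near the same level, and Wnt11 is higher at D8 and D12 than at D5, with GLI1 OE libraries below controls at D6.

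In D6 controls relative to D5 controls, 1 of 9 was called, lower, against 18.4% of all genes, 9.99% lower. Wnt2b stood at 5.26, 4.44 and 6.46 CPM in D6 controls, against 11.3, 16.4, 16.7 and 9.75 CPM in D5 controls, and fell by 1.33 ± 0.41 on the log2 scale (adjusted p = 0.0345). This call was lost without D5 library 2 or 3, without any of the D6 controls, and when D5 libraries 1 and 2 were summed as 1 sample, with adjusted p of 0.0591 to 0.143. Wnt11 stood at 12.9 to 24.4 CPM in D6 controls and averaged 6.60 ± 4.02 CPM in D5 controls, without overlap, with a log2 fold change of 1.63 ± 0.56 (adjusted p = 0.0571). It was called by DESeq2 (adjusted p = 0.0134, with 22.3% of genes called) and without D5 library 1 (adjusted p = 0.0426). Wnt3 differed widely among D5 libraries, at 2.31, 2.66, 19.2 and 3.88 CPM. Its change to D6 was called without D5 library 3 (log2 fold change 1.70, adjusted p = 0.0382), against 0.45 with all libraries (adjusted p = 0.706).

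In D12 controls relative to D8 controls, edgeR called 0 of 9, and 1 had an unadjusted p under 0.05 (Wnt5a, log2 fold change 0.70 ± 0.30, adjusted p = 0.0837). Over all genes 36.3% were called. DESeq2 also called 0 ligands, while edgeR fitted to those 4 libraries alone called 3, where 35.8% of genes were called: Wnt2 (adjusted p = 0.0169), Wnt5a (0.0496) and Wnt11 (log2 fold change -0.75, adjusted p = 0.0159). Wnt2 stood at 3.61 and 6.26 CPM in D12 controls, against 14.7 and 20.1 CPM in D8 controls (log2 fold change -1.81 ± 0.85, adjusted p = 0.112). Wnt2b had a log2 fold change of -1.19 (adjusted p = 0.154) with all libraries, -3.31 without D12 control library 9 (adjusted p = 0.00936) and -0.39 without D12 control library 19 (adjusted p = 0.649). Library 19, the other D12 control, held 2 counts of Wnt2b.

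Straight after the pulse, at D6, the test over all groups called no ligand, although Wnt11 and Wnt6 were below every control in each GLI1 OE library. In D6 GLI1 OE libraries against D6 controls, edgeR called 0 of 9, with 2 at an unadjusted p under 0.05 (Wnt11 and Wnt6), and DESeq2 called 1 (Wnt11). Over all genes edgeR called 4.14%, 1.12% lower and 3.02% higher, and DESeq2 called 6.92%. The median log2 fold change of the 9 ligands was -0.22, against -0.02 over all genes, and 6 of 9 estimates were below 0. The groups did not overlap for 2 of the 9, while 27% of all genes had groups that did not overlap.

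Wnt11, which supports heart muscle differentiation through routes that do not need beta-catenin, stood at 2.66, 5.92 and 6.45 CPM in D6 GLI1 OE libraries 12, 16 and 4, against 12.9, 24.4 and 24.0 CPM in D6 control libraries 11, 15 and 3. Every GLI1 OE library was below every control. The mean was 5.01 ± 2.05 CPM in D6 GLI1 OE cells and 20.4 ± 6.51 CPM in D6 controls (SD, n = 3 each). The log2 fold change was -2.02 ± 0.62 (adjusted p = 0.0978). DESeq2 called it (adjusted p = 0.0113), as did edgeR fitted to the 6 D6 libraries alone (adjusted p = 0.0209, with 9.19% of genes called), and the authors' deposited table gives a log2 fold change of -2.02 with an adjusted p of 7.31e-07. The D6 GLI1 OE level lay within the range of D5 controls (log2 fold change -0.40 ± 0.58 against D5, adjusted p = 0.653). Summed cardiomyocyte markers were also lower in all D6 GLI1 OE libraries than in all D6 controls, with the values given above. So were the 7 cardiac progenitor markers, summed, at 493 to 528 CPM in D6 GLI1 OE libraries and 730 to 969 CPM in D6 controls. In CPM, Gata4 had the widest gap of the 7, with means of 99.2 CPM in D6 GLI1 OE cells and 278 CPM in D6 controls. As a ratio the gap was widest for Tbx5, with means of 14.1 CPM in D6 GLI1 OE cells and 44.5 CPM in D6 controls. Isl1 (33.2 and 30.2 CPM) and Pdgfra (81.4 and 75.6 CPM) had slightly higher means in D6 GLI1 OE cells. The part of either list in the Wnt11 difference was not tested.

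Wnt6 stood at 1.85, 0.740 and 2.81 CPM in D6 GLI1 OE libraries 12, 16 and 4, against 5.02, 3.08 and 10.8 CPM in D6 controls 11, 15 and 3, again without overlap. The log2 fold change was -1.80 ± 0.61 (adjusted p = 0.131), and DESeq2 gave an adjusted p of 0.0603. The authors' deposited table gives -1.80 with an adjusted p of 0.0161, where 1946 of 15456 genes were under 0.05. Its neighbour Wnt10a had 7 counts over all libraries.

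Wnt2 stood at 10.9, 14.6 and 31.3 CPM in D6 GLI1 OE libraries 12, 16 and 4, against 23.8, 54.0 and 74.7 CPM in D6 controls 11, 15 and 3. The groups overlapped, with GLI1 OE library 4 above control library 11. The log2 fold change was -1.43 ± 0.67 (adjusted p = 0.320). Wnt3 also overlapped, at 2.94, 4.07 and 5.95 CPM in the GLI1 OE libraries and 3.63, 9.90 and 15.2 CPM in the controls, with a log2 fold change of -1.15 ± 0.76 (adjusted p = 0.541). Wnt9b, which overlaps Wnt3 in the annotation, reached at most 1.62 CPM at D6.

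The other ligands lay close to their controls at D6. Wnt4 averaged 78.5 ± 24.7 CPM in GLI1 OE cells and 64.4 ± 7.77 CPM in controls, and Wnt5a 70.5 ± 8.75 CPM in GLI1 OE cells and 71.5 ± 14.2 CPM in controls. Wnt5b averaged 5.30 ± 0.549 CPM in GLI1 OE cells and 4.44 ± 0.593 CPM in controls, and Wnt2b 4.63 ± 1.72 CPM in GLI1 OE cells and 5.38 ± 1.02 CPM in controls. None of these 4 passed the test (adjusted p = 0.857 to 0.988). Wnt8a had 3, 5 and 6 counts in GLI1 OE libraries and 8, 1 and 4 in controls. Wnt3a had 0 counts in all 3 GLI1 OE libraries and 2 counts in 1 control, so no difference was detectable at this depth.

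**Figure D3:**
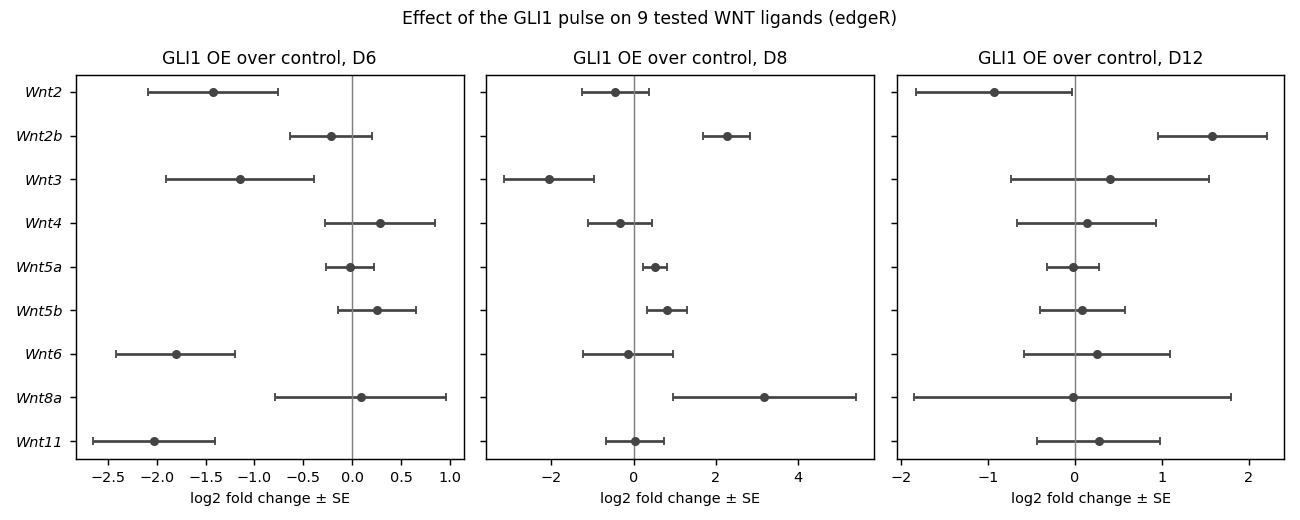
Log2 fold change of GLI1 OE over control (x axis, with SE bars; the scales differ between panels) for 9 tested WNT ligands at D6, D8 and D12. Wnt11, Wnt6, Wnt2 and Wnt3 lie below 0 at D6 and Wnt2b above 0 at D8 and D12; none passed the test over all groups.

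At D6, D8 and D12 the count columns number the libraries so that each control is followed by the GLI1 OE library with the next number. These numbers are not the replicate numbers of the labels, and no label says what they mean. At D6, adjacent libraries deviated together from their group means (Pearson r across 14892 genes of 0.520 for libraries 4 and 3, 0.617 for 12 and 11, and 0.445 for 16 and 15). Within these D6 pairs, the ratio of GLI1 OE to control was 0.269, 0.206 and 0.243 for Wnt11 and 0.259, 0.369 and 0.240 for Wnt6, in the order of pairs just given. It was 0.418, 0.457 and 0.270 for Wnt2 and 0.391, 0.811 and 0.411 for Wnt3. For these 4 ligands all 3 pairs were lower in GLI1 OE cells. Wnt2b was also lower in all 3 pairs, with ratios of 0.941, 0.966 and 0.615. Wnt5b was higher in all 3, with ratios of 1.06, 1.45 and 1.12. The share of all genes with all 3 pairs in the same direction was not computed.

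With the pair as a block in the 18-library fit, edgeR still called 0 ligands at D6 (667 genes, 4.48%). With the block in a fit of the 6 D6 libraries alone, it called 4 of the 8 ligands that passed the filter there, all lower, where 33.6% of genes were called, 17% lower. The 4 were Wnt11 (log2 fold change -2.04 ± 0.11, adjusted p = 9.2e-06), Wnt6 (-1.79 ± 0.19, adjusted p = 0.000272), Wnt2 (-1.42 ± 0.17, adjusted p = 0.0045) and Wnt3 (-1.06 ± 0.21, adjusted p = 0.00846). The fold changes were close to those without the block, and the standard errors were smaller.

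**Figure D4:**
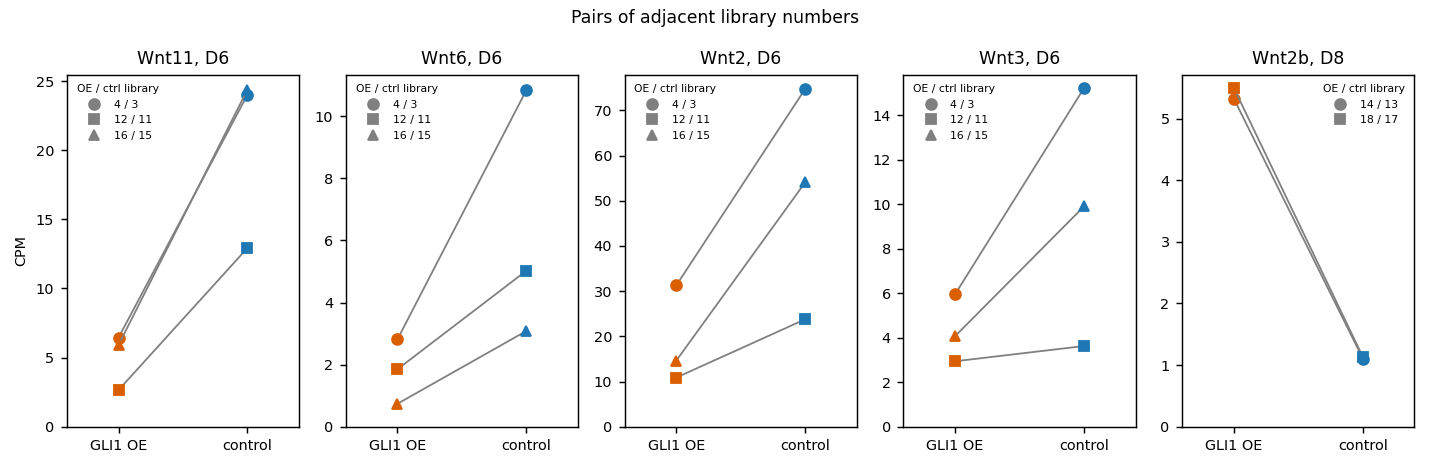
Level (y axis, CPM, linear from 0) of Wnt11, Wnt6, Wnt2 and Wnt3 at D6 and Wnt2b at D8 in GLI1 OE and control libraries; lines join libraries with adjacent numbers and symbols give the pair. All 3 D6 lines run from a lower GLI1 OE value to a higher control value for the 4 ligands, and both D8 lines of Wnt2b run the other way.

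At D8, when Gli1 was back at the control level, Wnt2b differed from controls at the smallest p of the ligands. It stood at 5.32 and 5.50 CPM in D8 GLI1 OE libraries 14 and 18, against 1.11 and 1.13 CPM in D8 controls 13 and 17. The replicates of each condition nearly coincided and the groups were far apart, with ratios within adjacent numbers of 4.81 and 4.85. The log2 fold change was 2.27 ± 0.56 (unadjusted p = 0.00124, adjusted p = 0.489), in a comparison where edgeR called 0 of 14892 genes (0%). DESeq2 called 40 genes there (0.269%), Wnt2b among them (adjusted p = 0.00775). The authors' deposited table gives 1.55 with an adjusted p of 0.625. St7l, which overlaps Wnt2b, averaged 16.1 ± 2.09 CPM in D8 GLI1 OE cells and 16.7 ± 0.229 CPM in D8 controls. The D8 GLI1 OE libraries differed more than any other replicates of a group (chi-square per gene of 119, against 46.9 for the D8 controls) and held cardiomyocyte markers at 9531 and 940 CPM, against 10280 and 5142 CPM in the D8 controls. Ptch1 stood at 899 to 1087 CPM in D6 GLI1 OE libraries and 34.5 to 73.8 CPM in D6 controls. At D8, GLI1 OE libraries 14 and 18 held 39.7 and 105 CPM of Ptch1, against 33.4 and 29.6 CPM in controls. The part of these differences in that of Wnt2b was not tested.

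Within GLI1 OE cells, the change of Wnt2b between D6 and D8 did not pass the test (log2 fold change 0.22 ± 0.47, adjusted p = 0.734), over the same days in which it fell in controls. The difference between the D8 and D6 effects, tested itself, was 2.48 ± 0.70 on the log2 scale (unadjusted p = 0.0032, adjusted p = 0.209). For that difference edgeR called 0.631% of genes and 0 ligands, with 2 ligands at an unadjusted p under 0.05 (Wnt2b and Wnt11). Wnt2b was called by DESeq2 (adjusted p = 0.00929), which called 1.56% of genes. It was also called with the pair block in the D6 and D8 libraries alone (2.52 ± 0.31, adjusted p = 0.0174), a fit that called 2.88% of genes.

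At D8 edgeR called 0 of 9 ligands, 1 of them at an unadjusted p under 0.05 (Wnt2b), and DESeq2 called 1. The groups did not overlap for 3 of 9 (Wnt2b, Wnt3 and Wnt8a), against 32.2% of all genes. For Wnt8a this rests on 1 count in each GLI1 OE library and 0 in each control. Wnt11 was at 110 CPM in GLI1 OE library 14 and 22.3 CPM in library 18, against 66.6 and 62.3 CPM in controls 13 and 17, so the replicates lay on both sides of the controls. The ratios within adjacent numbers were 1.65 and 0.358. Wnt2 split in the same way, at 20.8 CPM in library 14 and 4.68 CPM in library 18, against 14.7 and 20.1 CPM in controls 13 and 17. The library with low Wnt11 and Wnt2 was the one with 940 CPM of cardiomyocyte markers. The part of that difference in these values was not tested. Wnt5a stood at 109 and 53.3 CPM in GLI1 OE libraries 14 and 18 and 49.6 and 63.7 CPM in controls (log2 fold change 0.52 ± 0.30, adjusted p = 0.859). Wnt5b stood at 4.90 and 12.7 CPM in GLI1 OE cells and 3.63 and 6.36 CPM in controls (0.82 ± 0.49, adjusted p = 0.866). Wnt4, Wnt3 and Wnt6 were low in both conditions, at most 5.50 CPM in GLI1 OE cells and 7.50 CPM in controls.

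Wnt4, Wnt6 and Wnt3 also fell between D6 and D8 after the pulse. In GLI1 OE cells at D8 relative to D6, 4 of 9 ligands were called, 3 lower and 1 higher, against 40.1% of all genes (19.8% lower and 20.3% higher). Wnt4 fell by 4.52 ± 0.80, Wnt6 by 3.45 ± 0.89 and Wnt3 by 3.46 ± 1.06 on the log2 scale (adjusted p = 0.000744, 0.00769 and 0.0193). The Wnt4 value was -3.85 without D8 GLI1 OE library 14 and -5.86 without library 18, still called. Without D8 GLI1 OE library 14 the Wnt6 call was lost (adjusted p = 0.0694), and the Wnt3 call was lost without either D8 GLI1 OE library (adjusted p = 0.126 and 0.0751). Wnt11 rose by a log2 fold change of 3.72 ± 0.68 (adjusted p = 0.000955), to 110 and 22.3 CPM at D8, against 2.66, 5.92 and 6.45 CPM at D6, and remained called without D8 library 14 (2.14, adjusted p = 0.0326) or 18 (4.45, adjusted p = 0.000269). The difference of the Wnt11 effect between D8 and D6 was 2.06 ± 0.94 (adjusted p = 0.691).

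At D12 edgeR called 0 of 9 ligands and 0 of 14892 genes (0%) in GLI1 OE against control. At an unadjusted p under 0.05 there was 1 (Wnt2b), and DESeq2 called none of the 9. Wnt2b stood at 1.93 and 1.03 CPM in D12 GLI1 OE libraries 10 and 20, against 0.859 and 0.106 CPM in controls 9 and 19 (log2 fold change 1.58 ± 0.63, adjusted p = 0.810). Without control library 19 or 9 the log2 fold change was 0.78 or 3.72, so 1 control library sets its size. Wnt11 stood at 45.4 and 46.3 CPM in D12 GLI1 OE cells and 41.4 and 34.5 CPM in D12 controls (0.27 ± 0.71, adjusted p = 0.988). The difference between its D12 and D6 effects was 2.30 ± 0.94 (adjusted p = 0.471). It was called with the pair block in the libraries of those days alone (2.33 ± 0.18, adjusted p = 0.0066), a fit that called 1.84% of genes. At D12, unlike D6, adjacent libraries did not deviate together from their group means (Pearson r of -0.231). The block may therefore not describe the D12 libraries. For that difference edgeR called 0 ligands over all groups, with 2 at an unadjusted p under 0.05 (Wnt2b and Wnt11), DESeq2 called 0, and 0.604% of genes were called. The groups did not overlap for 3 of 9 ligands at D12 (Wnt2, Wnt2b and Wnt11), against 34.3% of all genes.

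Within GLI1 OE cells, 1 of 9 ligands was called at D12 relative to D8, against 33.5% of all genes. Wnt2b fell by 1.88 ± 0.55 on the log2 scale (adjusted p = 0.0185), a call lost without D8 GLI1 OE library 18 (adjusted p = 0.0538) or D12 GLI1 OE library 20 (adjusted p = 0.144). Wnt2 stood at 3.01 and 2.19 CPM in D12 GLI1 OE cells and 20.8 and 4.68 CPM in D8 GLI1 OE cells (log2 fold change -2.30 ± 0.89, adjusted p = 0.0621). It was called by DESeq2 (adjusted p = 0.0132, with 36.9% of genes called) and without D8 library 18 (-2.99, adjusted p = 0.0319), whereas without D8 library 14 its log2 fold change was -0.82 (adjusted p = 0.560). D6 GLI1 OE cells relative to D5 controls had 1 ligand called, against 29.5% of genes. Wnt2b fell there by 1.55 ± 0.41 on the log2 scale (adjusted p = 0.0114), lost without D6 GLI1 OE library 16 (adjusted p = 0.0625). This comparison and that of D6 controls with D5 controls share the D5 libraries.

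The genes around the ligands were read from 8 lists of the pathway. At D6, 7 of their 83 tested genes were called (8.43%), 3 higher and 4 lower, against 4.14% of all genes, 3.02% higher and 1.12% lower. With the pair block in the D6 libraries alone, 36 of 74 were called, 14 higher and 22 lower, against 33.6% of all genes. These included 8 of 16 receptors, 7 of 10 secreted inhibitors and 7 of 10 planar cell polarity genes tested there. Transducers had 3 higher and 2 lower of 15, and beta-catenin target genes 2 higher and 2 lower of 8. WNT secretion had 2 of 6 called, the R-spondin module 2 of 7, and the other WNT ligands 1 of 2. Without GLI1 OE library 16, 3 of the 83 were called in the fit over all groups (3.61%), where 330 of all 14864 genes tested were called. Among the 9 other WNT ligands, 5 were tested and 0 called at D6. Wnt9a, known from heart valve and limb joint development, had 3.96 ± 0.434 CPM in D6 GLI1 OE cells and 1.46 ± 0.524 CPM in D6 controls (log2 fold change 1.44 ± 0.45, adjusted p = 0.104), and DESeq2 called it (adjusted p = 0.0251). Of 6 genes of WNT secretion, 0 were called at D6. Wls had 391 ± 49.8 CPM in GLI1 OE cells and 487 ± 37.4 CPM in controls (-0.32 ± 0.16, adjusted p = 0.377).

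Of 16 receptors and co-receptors, 1 was called at D6. Ror2, a receptor for Wnt5a, fell to 43.3 ± 2.77 CPM in GLI1 OE cells, against 65.5 ± 10.2 CPM in controls (-0.60 ± 0.14, adjusted p = 0.0241). The call was lost in 5 of the 6 fits without a D6 library, all except the one without control library 3, with adjusted p up to 0.113. Ror1, its relative, was chosen after its values were seen, and had 9.65 ± 1.42 CPM in GLI1 OE cells and 26.6 ± 7.86 CPM in controls (-1.46 ± 0.40, adjusted p = 0.0586). DESeq2 called it (adjusted p = 0.00626), as did edgeR in the D6 libraries alone without the block (0.0111) and with it (3.47e-05). The list's median was -0.02. In the R-spondin module, whose secreted members raise Frizzled at the surface, 0 of 9 were called, 8 of 9 estimates were below 0, and the median was -0.63, against -0.02 over all genes. Lgr4, an R-spondin receptor, had 74.4 ± 10.1 CPM in GLI1 OE cells and 96.0 ± 24.0 CPM in controls (adjusted p = 0.611). Rspo3, also chosen after its values were seen, had 15.1 ± 6.64 CPM in GLI1 OE cells and 59.3 ± 21.8 CPM in controls (-1.97 ± 0.54, adjusted p = 0.0590). It was called by DESeq2 (adjusted p = 0.00341), in the D6 libraries alone (0.0240), with the pair block over 18 libraries (0.0440) and with the block in the D6 libraries alone (1.94e-06).

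Of 12 tested secreted inhibitors, 1 rose and 1 fell at D6. Wif1, which binds WNT ligands outside the cell, rose to 18.9 ± 5.02 CPM in GLI1 OE cells, against 1.14 ± 0.274 CPM in controls (4.05 ± 0.72, adjusted p = 0.00472). Dkk1, which blocks Lrp5 and Lrp6, fell to 10.3 ± 2.78 CPM in GLI1 OE cells, against 46.3 ± 5.51 CPM in controls (-2.17 ± 0.42, adjusted p = 0.00782). The Dkk1 call was lost without GLI1 OE library 16 (adjusted p = 0.0552). The list's median was 0.20.

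Of 15 intracellular transducers, 1 rose: Ctnnb1, the gene of beta-catenin, with 2054 ± 189 CPM in GLI1 OE cells and 1330 ± 59.9 CPM in controls (0.63 ± 0.09, adjusted p = 0.000793). The median of that list was 0.04. Of 10 tested beta-catenin target genes, 1 fell: Nkd1, a feedback inhibitor of WNT signalling, with 23.6 ± 2.02 CPM in GLI1 OE cells and 43.9 ± 10.7 CPM in controls (-0.89 ± 0.22, adjusted p = 0.0298). The list's median was -0.26, with 3 estimates above 0 and 7 below. T, chosen after its values were seen, had 11.5 ± 4.48 CPM in GLI1 OE cells and 1.82 ± 1.09 CPM in controls, without overlap. Its log2 fold change was 2.66 (adjusted p = 0.163). edgeR in the D6 libraries alone called T without the block (0.0179) and with it (0.000488). The Nkd1 call was lost in 5 of the 6 fits without a D6 library, all except the one without control library 11, with adjusted p up to 0.123. Of 10 planar cell polarity genes, with a median of -0.20, 1 rose and 1 fell. Vangl1, a core polarity membrane protein, had 109 ± 2.11 CPM in GLI1 OE cells and 45.5 ± 3.27 CPM in controls (1.26 ± 0.14, adjusted p = 0.000122). Daam2, a formin that links Dishevelled to actin, had 45.3 ± 2.29 CPM in GLI1 OE cells and 71.9 ± 8.91 CPM in controls (-0.67 ± 0.14, adjusted p = 0.0132), lost without control library 15 or GLI1 OE library 12 or 16 (adjusted p up to 0.0653).

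**Figure D5:**
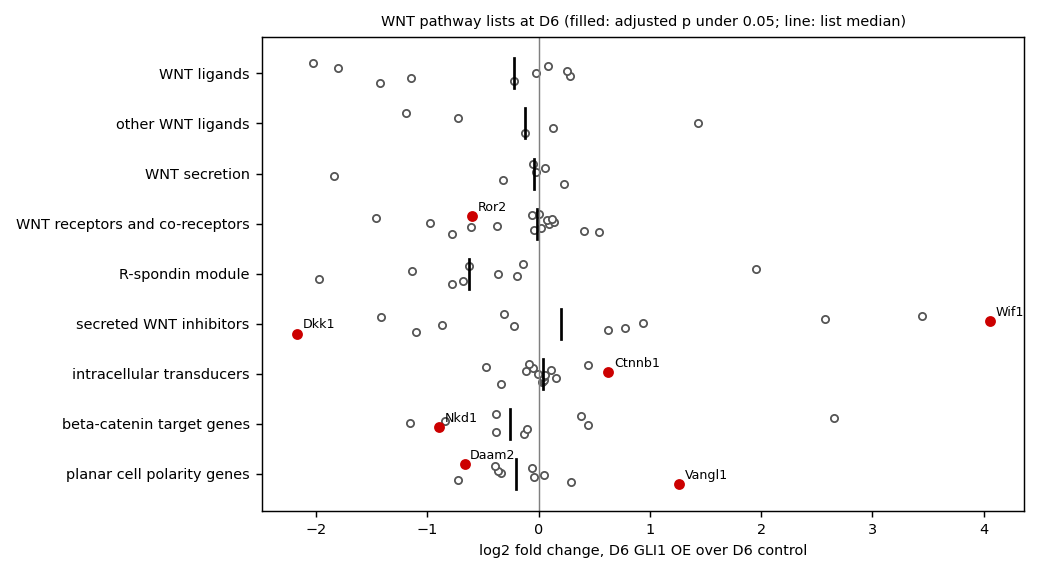
Log2 fold change of D6 GLI1 OE over D6 control (x axis) for each tested gene of the WNT ligands and 8 lists of the pathway (y axis); filled points passed an adjusted p of 0.05 and black lines are list medians. Wif1, Vangl1 and Ctnnb1 are filled to the right of 0, Dkk1, Nkd1, Daam2 and Ror2 to the left, and no ligand is filled.

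At D8 and D12 edgeR called 0 genes in any of the 8 lists, on days when it called 0 of all 14892 genes (0%). Sfrp1, a secreted Frizzled-like inhibitor and the most abundant tested inhibitor, had 231 ± 78.8 CPM in D8 GLI1 OE cells and 155 ± 9.10 CPM in D8 controls (adjusted p = 0.866). At D12 it had 727 ± 12.8 CPM in GLI1 OE cells and 929 ± 269 CPM in controls (adjusted p = 0.971). Ctnnb1 had 1579 ± 103 CPM in D8 GLI1 OE cells and 1441 ± 9.72 CPM in D8 controls (adjusted p = 0.917). Nkd1 had 60.7 ± 9.14 CPM in D12 GLI1 OE cells and 96.8 ± 5.34 CPM in D12 controls (-0.67 ± 0.26, adjusted p = 0.810).

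Likeness was measured as the root-mean-square difference between centred log2 CPM means of the 7 groups, so it describes a shape over these groups and no shared function. Among 11064 candidates, the genes most like Wnt11 were Map3k8 (0.314) and Ppp1r3b (0.327). Those most like Wnt2 were Plac1 (0.353) and Camk2n2 (0.439), and those most like Wnt2b were Cdh6 (0.420) and Ephb1 (0.448). Wnt3 was closest to Popdc3 (0.423) and Chrna7 (0.451). Fam46b was among the closest for both Wnt4 (0.612, after Vnn1 at 0.537) and Wnt6 (0.510, before Svep1 at 0.549). Wnt8a was closest to Npm3 (0.166) and Snora61 (0.218), at a level close to 0, where the prior count flattens the shape. Wnt5a and Wnt5b varied by under 2 log2 units and were given no neighbours.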

How the data were processed

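PolyA RNA was sequenced from 18 libraries (TruSeq RNA kit v2, 50-base stranded reads from 1 end, per the labels' protocols). The authors deposited raw read counts per gene symbol, used as deposited, and TPM values of the D5 samples, used only as levels. The authors' deposited tables of log2 fold changes and p-values were used only beside values computed here. For D8 and D12 those tables do not name their log base, which was taken as 2. No aligner, counting program or genome build is given in the sources used here.

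Counts were fitted in R 4.3.3 with edgeR 4.0.16 (TMM scaling, robust quasi-likelihood test, 1 coefficient per group over all 7 groups, minimum count 10), which left 14892 genes. Each contrast was adjusted by Benjamini-Hochberg over all its genes, with calls at an adjusted p under 0.05. The SE of an edgeR log2 fold change is the absolute change divided by the square root of the test's F statistic. Levels are CPM on TMM-scaled library sizes, and log2 CPM for likeness had a prior count of 2. Differences between days were tested as interaction contrasts. Alternatives were DESeq2 1.42.0, DESeq2-type size factors, no filter, fitting only the groups compared, leaving out each library, a block of adjacent library numbers, and D5 libraries 1 and 2 summed. Results to which DESeq2 gave no adjusted p were left out.

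The members and lists were chosen with earlier results of these data known, and the block, its crossed form at D12 and the summed D5 sample were chosen after seeing the data. All 10 ligands are named. From each pathway list, up to 3 called genes with the smallest adjusted p are named, or else the gene of highest mean CPM; for each ligand whose group means span 2 log2 units or more, the 2 most alike genes with a mean log2 CPM of at least 1 are named. At D6 the adjacent library numbers went together in all 3 pairs, and at D8 the correlation was 0.491, but at D12 it was -0.231; no label gives this pairing, so the fit without the block is the one reported. The model was tested on simulated counts. Deposited tables holding subsets of the same comparisons were not used.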

Additional observations from a re-analysis of the deposited data

Results flagged for a closer look

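Wnt3 in D5 controls had 1 library far from the others: 19.2 CPM in library 3, against 2.31, 2.66 and 3.88 CPM in libraries 1, 2 and 4. The gap to the nearest library was 0.907 of the whole range, above Dixon's 95% critical value for 4 samples. That value takes the 4 libraries as independent, although libraries 1 and 2 were much alike (chi-square per gene of 6.70). The flag therefore depends on counting both. All 10 ligands were examined at D5, and chance marks about 1 in 20 such groups. The same library held the highest sum of primitive streak and nascent mesoderm markers, at 151 CPM, against 24.4 to 41.1 CPM in the other D5 libraries, and the highest Wnt4, at 111 CPM.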

How the results depend on the processing

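The count columns carry no replicate numbers of the labels, so the replicate block is of adjacent library numbers. Numbers below count called ligands unless genes are named. For GLI1 OE against control at D6, the main fit gave 0 (4.14% of all genes called). DESeq2 gave 1 (6.92% of genes) and the fit of only the D6 libraries gave 1 (9.19% of genes). That fit with the replicate block gave 4 (33.6% of genes), and the replicate block over all 18 libraries gave 0 (4.48% of genes). At D8 DESeq2 gave 1 (0.269% of genes), and at D12 every alternative gave 0, the crossed replicate block included. The difference between D8 and D6 effects gave 1 with DESeq2 (1.56% of genes) and 1 with the replicate block in its own libraries (2.88% of genes). The difference between D12 and D6 gave 1 with the replicate block in its own libraries (1.84% of genes). D6 over D5 controls (1, with 18.4% of genes) gave 2 with DESeq2 (22.3% of genes). It gave 0 with D5 libraries 1 and 2 summed (2218 of 14865 genes). D8 over D6 controls (5, with 34.8% of genes) gave 3 without the filter (4787 of 19186 genes). D12 over D8 controls (0, with 36.3% of genes) gave 3 with only its own libraries (35.8% of genes). GLI1 OE D12 over D8 (1, with 33.5% of genes) gave 2 with DESeq2 (36.9% of genes). It gave 0 with only its own libraries, a fit that called 0 of 13842 genes. Leaving out 1 library gave 0 to 0 for the GLI1 OE effects and their differences, 0 to 2 for D6 over D5 controls, 2 to 4 for D8 over D6 controls, 0 to 1 for D12 over D8 controls, 2 to 4 for GLI1 OE D8 over D6, 0 to 1 for GLI1 OE D12 over D8, and 0 to 2 for D6 GLI1 OE over D5 controls; where an arm was left with 1 library, that library is assumed to vary like the other groups. No called direction turned. Of the named single genes under all alternatives, 1240 values kept their side of the threshold, 39 lost a call and 34 gained one. Fits to fewer libraries test fewer genes and estimate the spread from fewer samples; beyond that the cause was not tested. Ligands under about 0.170 CPM are at the limit of these depths.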
